A study of Mus musculus with 102 samples.

Results

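Unmethylated regions are short stretches of the genome whose CpGs carry almost no methylation, and most of them are gene promoters. The regions described here are those given exactly the type UMR in the study's list of amplicon regions. There were 9 of them among 88 listed regions. They held 82 of the 405 CpGs in the amplicon tables. In a second assay, SureSelect capture of a wider set of promoters and regulatory regions followed by bisulfite sequencing, 143 of 2177608 CpGs lay inside 8 of these regions, and 377 lay within 2000 bases of the ends of the 9 regions, here called their shores.

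The cells were C57BL6/J mouse embryonic stem cells. Wild-type cells had intact Tet1, Tet2 and Tet3 and carried floxed Dnmt3a and Dnmt3b alleles, and TTKO cells were a Tet triple knockout line, a single clone derived from them, with the same floxed alleles. Cre protein was transduced to delete the floxed catalytic exons of Dnmt3a and Dnmt3b, and mock cells received the buffer alone. The deletion was not complete, and a minor share of intact alleles stayed in the Cre cultures. The amplicon samples of each line were untransduced cells at day 0 and Cre and mock cells at days 4, 8, 10, 13, 17 and 29, with 3 replicates of each. The capture samples were TTKO cells at the same 7 times after Cre and wild-type cells at day 0, with no mock cells, and their replicates were joined in the deposited columns. The study's methods call the replicates biological. The labels number them without naming separate cultures. The tables hold methylation only, so neither the loss of Tet and Dnmt3 activity nor the stem cell identity could be checked on expression.

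DNA methylation at CpGs is placed by the de novo enzymes DNMT3A and DNMT3B and is copied at replication by DNMT1. TET enzymes oxidise 5-methylcytosine, which opens a route of active demethylation. Without TET, methylation at a site is lost by imperfect copying, called passive demethylation, and is gained by de novo methylation. CpG-rich promoters are known to stay nearly free of methylation in most cell types, and their flanks, the CpG island shores, are known to vary more.

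Each region spanned 401 bases of mm9, and each was named by its nearest annotated protein-coding gene start. A start lay inside the region at 0610031J06Rik (chr3:88128879-88129279), which RefSeq calls Glmp and which encodes a lysosomal membrane glycoprotein, and at Tmem106b (chr6:13019489-13019889), which encodes another lysosomal membrane protein. The start lay 76 bases away at Zfp82 (chr7:30857204-30857604), a zinc finger gene, 132 bases away at Hdac2 (chr10:36693818-36694218), which encodes a histone deacetylase, and 137 bases away at B3galt4 (chr17:34087896-34088296), which encodes a galactosyltransferase of ganglioside synthesis. It lay 148 bases away at 1810063B07Rik (chr14:20901846-20902246), which RefSeq calls Saysd1, and 822 bases away at Agfg1 (chr1:82836880-82837280), an intronic region of a gene for a nucleoporin-like protein. These 7 regions lay within 1000 bases of a start. The other regions did not. The region named Id3 (chr4:135690648-135691048) lay 8364 bases upstream of that gene, which encodes a helix-loop-helix inhibitor of DNA binding, and the region named Dgcr6 (chr16:18036780-18037180) lay 15773 bases upstream of its gene. Neither overlapped an annotated gene, so for them the promoter label has no support in this annotation.

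CpG content differed widely among the 9 regions. Hdac2 held 33 CpGs at 64.3% GC, with an observed to expected CpG ratio of 0.83, whereas Dgcr6 held 6 CpGs at a ratio of 0.24, 0610031J06Rik 8 at a ratio of 0.30 and Agfg1 9 at a ratio of 0.44. The sequences of 3 regions are shown because the results turn on them. In the amplicons at day 0, Id3 and Dgcr6 had the highest TTKO means and Tmem106b the lowest. The stretches are the mm9 plus strand from 5′ to 3′, at chr4:135690675-135690896, chr16:18036952-18037138 and chr6:13019577-13019758, and capitals mark the CpGs with amplicon levels. The Tmem106b stretch stops at the first annotated exon.
Id3: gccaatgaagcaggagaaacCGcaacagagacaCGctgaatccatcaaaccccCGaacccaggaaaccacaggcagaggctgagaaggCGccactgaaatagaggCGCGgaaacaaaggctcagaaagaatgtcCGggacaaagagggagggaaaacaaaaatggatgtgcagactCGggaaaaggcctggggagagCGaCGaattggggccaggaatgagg
Dgcr6: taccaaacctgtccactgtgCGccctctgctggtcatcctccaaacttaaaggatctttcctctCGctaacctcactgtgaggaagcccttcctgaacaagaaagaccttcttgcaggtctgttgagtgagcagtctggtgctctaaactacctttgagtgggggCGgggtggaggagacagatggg
Tmem106b: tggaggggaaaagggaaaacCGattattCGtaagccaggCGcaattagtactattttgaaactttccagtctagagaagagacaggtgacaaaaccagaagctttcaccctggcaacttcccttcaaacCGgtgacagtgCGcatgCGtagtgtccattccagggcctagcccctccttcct

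The first capital pair of the Id3 stretch and the second of the Dgcr6 stretch are the CpGs with the highest levels in the whole set, at chr4:135690695 and chr16:18037016. In the central 300 bases of each region both strands were searched for 5 motifs. The GC box GGGCGG was found in 4 of 9 regions (B3galt4, Zfp82, Id3 and Dgcr6), against 35.7% of 32851 RefSeq promoters of the same length in GRCm38.p6. The E-box CACGTG was found at Zfp82 and at Hdac2, against 7.15% of promoters. CCGGAAG, an ETS-type motif, was found at B3galt4, against 8.86%, and GCGCATGC, the core of the NRF1 site, at Tmem106b, against 2.71%. The TATA motif TATAAA was found in 0 of 9 regions, against 13.6% of promoters. None of the 5 motifs contains another.

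The amplicon CpGs of these regions were deeply covered, with a median of 10820.5 reads and sample medians between 5633.5 and 22885.5 reads. TTKO cells lacked 3 and wild-type cells 26 of the 3198 levels per line, each under the limit of 100 reads. The lost levels belonged to Dgcr6 in replicate 1 of TTKO Cre at day 10, and to Hdac2 and Id3 in 1 replicate each of wild-type Cre at day 8. The wild-type mock samples of day 4 stood apart from other wild-type groups in their spread. Over 56 CpGs with a level in every wild-type sample, their means were 4.60, 3.11 and 2.92%. No result at day 0 or day 29 uses them. The reads come from PCR and carry no molecular identifiers, so precision was taken from the replicates.

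At day 0 the regions were close to unmethylated in wild-type cells and higher in TTKO cells. The mean over the 82 CpGs was 2.95% ± 0.22 (SD, n = 3) in wild-type cells and 4.61% ± 0.20 (SD, n = 3) in TTKO cells, a difference of 1.66 percentage points. The 3 TTKO samples lay between 4.38 and 4.75% and the 3 wild-type samples between 2.71 and 3.10%, without overlap. For comparison, the constitutive low-methylated regions of the same tables averaged 61.5% in TTKO and 20.6% in wild-type cells, and those bound by REST 19.3 and 9.71%. Most CpGs of the unmethylated regions were lower than the means above. The median CpG stood at 3.04% in TTKO and 2.66% in wild-type cells, and the highest CpG at 29.5% and 7.35%. In TTKO cells 20 of 82 CpGs reached 5% and 7 reached 10%, whereas in wild-type cells 5 reached 5% and 0 reached 10%. Between mock cells of day 29 the lines differed less, with means over the 82 CpGs of 3.43% in TTKO and 2.61% in wild-type cells. Every replicate comparison here has 3 samples a side, for which a two-sided exact permutation test cannot go below p = 0.1, so single regions are described by their values and by whether the samples overlap.

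By region, the wild-type means ran from 2.16% ± 0.21 (SD, n = 3) at 0610031J06Rik to 4.44% ± 0.82 (SD, n = 3) at Dgcr6. The TTKO levels split the set. Dgcr6 read 10.53, 10.0 and 9.65% in the 3 TTKO replicates and 4.35, 5.30 and 3.66% in wild-type cells. Id3 read 8.60, 9.79 and 10.1% in TTKO cells and 3.59, 3.22 and 2.74% in wild-type cells. At both regions, those away from annotated starts, every TTKO sample exceeded every wild-type sample, and the difference was largest at Id3, at 6.33 points.

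In the amplicons of TTKO cells at day 0 the promoter-proximal regions stood below Dgcr6 and Id3. 0610031J06Rik averaged 5.01% ± 0.93 (SD, n = 3), B3galt4 4.60% ± 0.11, 1810063B07Rik 4.53% ± 0.30 and Zfp82 3.82% ± 0.45, and their wild-type means were 2.16, 2.46, 3.37 and 2.44%. In each of these 4 the TTKO samples lay above the wild-type samples. Agfg1 averaged 3.36% ± 0.83 in TTKO and 2.61% ± 0.44 in wild-type cells, and Hdac2 2.77% ± 0.34 and 3.02% ± 0.35, with overlapping samples. Tmem106b went the other way, with 2.81, 2.64 and 2.58% in TTKO cells and 3.14, 3.14 and 2.98% in wild-type cells. In all, 6 of 9 regions had every TTKO replicate above every wild-type replicate, against 82.8% of the 64 regions of all types with complete values. Over the 69 CpGs of the 7 promoter-proximal regions the means were 3.66% ± 0.30 in TTKO and 2.85% ± 0.17 in wild-type cells, again without overlap. In mock cells at day 29 the same CpGs averaged 2.46% in TTKO and 2.49% in wild-type cells, with overlapping samples.

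**Figure D1:**
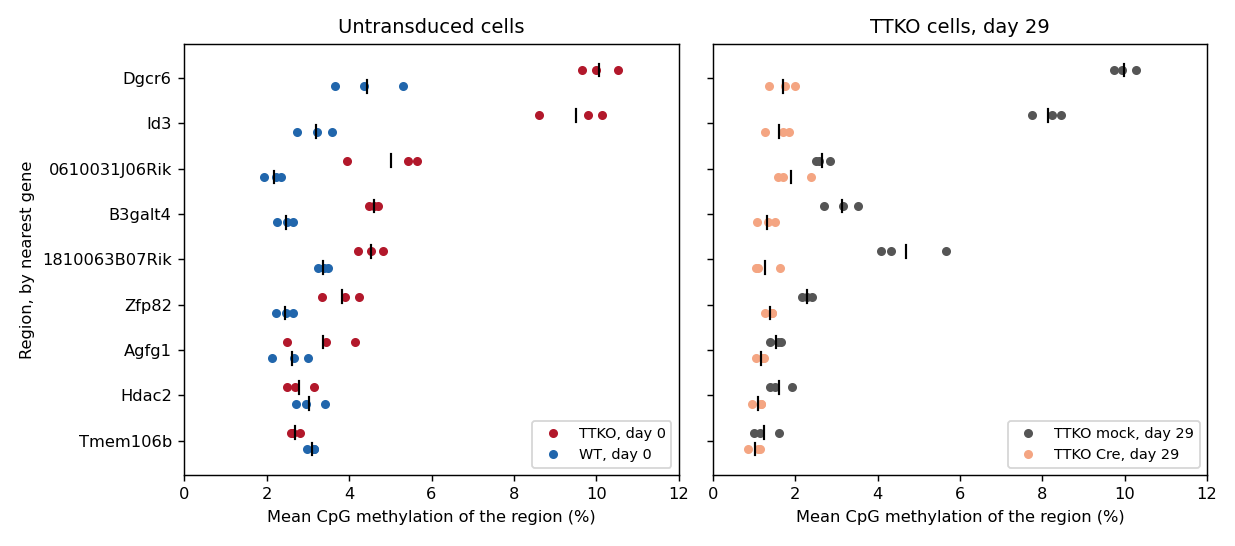
Mean amplicon methylation (percent) of each of the 9 regions in single replicates (points) with group means (ticks). The left panel sets TTKO against wild-type cells at day 0 and the right panel TTKO mock against TTKO Cre at day 29. Dgcr6 and Id3 stand near 10% in TTKO cells at day 0, and in the right panel every Cre mean lies below its mock mean.

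Single CpGs were tested with a quasi-binomial model fitted to all CpGs of the tables, with Benjamini-Hochberg adjustment over all of them and a threshold of 0.05. At day 0, 19 of the 82 CpGs were higher and 2 lower in TTKO cells than in wild-type cells. Over all 405 CpGs, 59.3% were higher and 1.48% lower. The median log2 odds ratio, the log2 of the ratio of methylated to unmethylated odds, was 0.30 over the 82 CpGs and 1.17 over all CpGs. Of the 19 that were higher, 6 lay in Id3, 5 in B3galt4, 3 in Zfp82, 2 each in 0610031J06Rik and 1810063B07Rik and 1 in Dgcr6. Both CpGs that were lower lay in Hdac2.

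Levels differed within the regions. In Dgcr6 1 of 3 CpGs reached 5% in TTKO cells, and in Id3 6 of 10 did. At chr4:135690695 in Id3 the level was 24.6, 31.7 and 32.3% in the TTKO replicates and 6.34, 7.02 and 5.67% in wild-type cells. The TTKO samples exceeded the wild-type samples by a log2 odds ratio of 2.62 (SE 0.22, adjusted p = 2.98e-05 in the quasi-binomial model with limma). At chr16:18037016 in Dgcr6 the level was 27.9, 26.4 and 20.9% in TTKO cells and 4.73, 9.97 and 7.35% in wild-type cells. That difference was 2.12 (SE 0.33, adjusted p = 0.000719 in the same model). The other two CpGs of the Dgcr6 amplicon stood at 3.03 and 2.10% in TTKO cells, so the regional mean rested on 1 CpG. The third highest CpG was chr4:135690728 in Id3, with 12.6, 14.6 and 12.5% in TTKO cells and a mean of 2.33% in wild-type cells (log2 odds ratio 2.59, SE 0.26, adjusted p = 6.96e-05 in the same model).

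Across the Id3 stretch printed above, the TTKO levels fell from the left end to the right end. The 10 capital pairs stood in order at 29.5, 11.6, 13.3, 8.20, 3.68, 11.4, 8.05, 3.03, 3.67 and 2.71%. The fall was not even, since the fifth and sixth CpGs, which touch in the run CGCG, stood at 3.68% ± 0.75 and 11.4% ± 0.23 (SD, n = 3). In wild-type cells the same pair stood at 4.14% ± 1.61 and 3.37% ± 1.97.

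**Figure D2:**
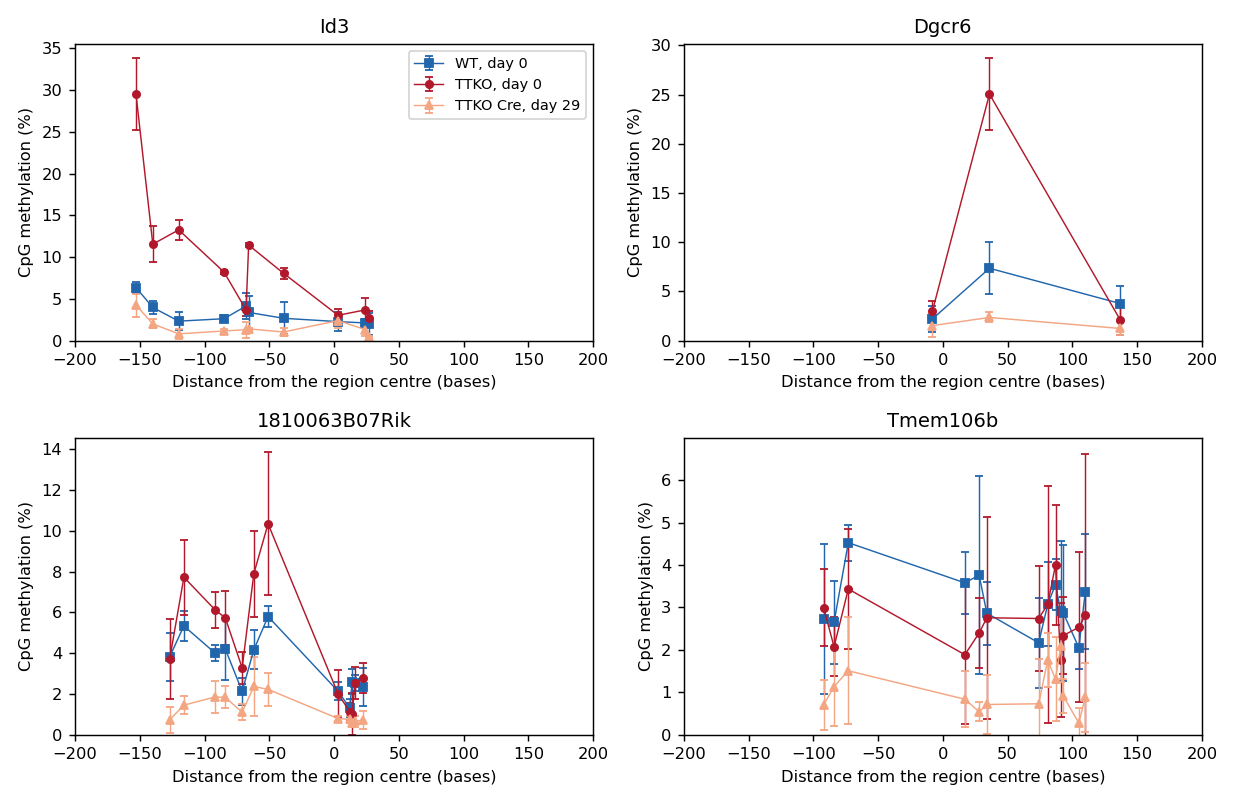
Methylation (percent) of single amplicon CpGs against distance from the region centre (bases) in Id3, Dgcr6, 1810063B07Rik and Tmem106b, as means with SD over 3 replicates. In TTKO cells at day 0, 1 CpG of Dgcr6 stands at 25.1% and the others near 2 to 3%, the Id3 CpGs run from 29.5 to 2.71%, and Tmem106b stays low throughout.

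The effect of de novo methylation was read from Cre against mock cells of the same day. In TTKO cells at day 29 the mean over the 82 CpGs was 1.30% ± 0.09 (SD, n = 3) after Cre and 3.43% ± 0.22 (SD, n = 3) after mock treatment, 0.379 times the mock level. The Cre samples lay between 1.202 and 1.355% and the mock samples between 3.23 and 3.66%, without overlap. Over the 7 promoter-proximal regions the means were 1.24% ± 0.06 and 2.46% ± 0.20, also without overlap. After Cre 70 of the 82 CpGs were under 2%, 1 reached 5% and 0 reached 10%, and in mock cells 15 reached 5% and 4 reached 10%.

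The largest differences were at the regions with the highest mock levels. Dgcr6 read 10.3, 9.92 and 9.75% in TTKO mock cells and 1.99, 1.36 and 1.75% after Cre. Id3 read 8.45, 8.22 and 7.74% in mock cells and 1.70, 1.85 and 1.27% after Cre. 1810063B07Rik averaged 4.69% ± 0.85 in mock cells and 1.26% ± 0.32 after Cre, and B3galt4 3.13% ± 0.42 and 1.31% ± 0.22 (SD, n = 3). Mock levels of the other 5 regions were already between 1.25 and 2.64%. 0610031J06Rik went from 2.64 to 1.89%, Zfp82 from 2.29 to 1.38%, Hdac2 from 1.61 to 1.095%, Agfg1 from 1.54 to 1.17% and Tmem106b from 1.25 to 1.03%. The 3 Cre samples were all below the 3 mock samples in 8 of 9 regions, all but Tmem106b, against 96.7% of the 61 regions of all types. Tmem106b read 1.01, 1.14 and 1.60% in mock cells and 0.86, 1.15 and 1.09% after Cre.

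Per CpG, 25 of the 82 were lower after Cre and 0 were higher at an adjusted p under 0.05, with 29 at an unadjusted p under 0.05 (quasi-binomial model with limma). Over all CpGs tested 66.7% were lower, and the median log2 odds ratio was -0.91 over the 82 CpGs and -1.92 over all. Id3 held 8 called CpGs of 10, 1810063B07Rik 7 of 12, B3galt4 5 of 11, Hdac2 and Zfp82 2 each and Dgcr6 1 of 3. 0610031J06Rik, Agfg1 and Tmem106b held 0. Leaving out replicate 1 of the TTKO Cre samples left 13 calls, replicate 2 left 16 and replicate 3 left 15. Of the 20 CpGs at 5% or more in TTKO cells at day 0, 15 (75%) were called lower after Cre, against 243 of 291 (83.5%) over all amplicon CpGs at that level. Of the 25 lower after Cre, 14 (56.0%) were also among the 19 that were higher in TTKO than in wild-type cells at day 0 (73.7% of those). The comparisons share no sample, but both calls depend on the TTKO level of a CpG, so they are not independent. Over all amplicon CpGs the overlap was 205, which was 80.1% of the 256 lower after Cre and 85.4% of the 240 higher in TTKO cells.

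The 3 largest falls were at the CpGs already named and in the 1810063B07Rik intron. At chr16:18037016 in Dgcr6 the mock replicates read 26.3, 27.1 and 26.2% and the Cre replicates 1.81, 2.43 and 2.82% (log2 odds ratio -3.91, SE 0.33, adjusted p = 4.97e-05 in the quasi-binomial model). At chr4:135690695 in Id3 mock read 26.5, 28.9 and 26.2% and Cre 5.59, 4.31 and 2.83% (log2 odds ratio -3.01, SE 0.21, adjusted p = 2.51e-05 in the same model). At chr14:20901995 in 1810063B07Rik mock read 15.5, 17.5 and 9.79% and Cre 3.13, 1.499 and 2.06% (log2 odds ratio -3.02, SE 0.45, adjusted p = 0.000716 in the same model). Every Cre replicate was below every mock replicate at the 3 CpGs. At the last of them the coverage was as low as 256 reads in a sample.

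Mock levels at day 29 were themselves below day 0 in TTKO cells. The mean over the 82 CpGs fell from 4.61% at day 0 to 3.43% in mock cells, and over the promoter-proximal CpGs from 3.66 to 2.46%, both without overlap. In 7 of 9 regions every mock replicate of day 29 was below every replicate of day 0, against 29.0% of the 62 regions of all types. At the 2 highest CpGs the samples of day 0 and of mock cells overlapped, with means of 29.5 and 27.2% at chr4:135690695 in Id3 and 25.1 and 26.6% at chr16:18037016 in Dgcr6. In wild-type cells the mean over the promoter-proximal CpGs went from 2.85% at day 0 to 2.49% in mock cells, without overlap. Over the 82 CpGs the wild-type mean went from 2.95 to 2.61%, with overlap. What moved the low CpGs between days was not tested. A comparison of Cre cells with day 0 cells therefore includes this shift, and one with mock cells of the same day does not.

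In the time course, the TTKO means were taken over 79 CpGs of 8 regions with a level in every sample. They started at 4.40% ± 0.21 (SD, n = 3) at day 0. After Cre they were 2.83, 2.92, 2.18, 2.47, 2.79 and 1.28% at days 4, 8, 10, 13, 17 and 29. In mock cells they were 3.18, 3.43, 4.00, 4.41, 4.53 and 3.18%. Cre samples overlapped mock samples at days 4 and 8, and lay below all of them from day 10 on, by 1.82, 1.94, 1.74 and 1.89 points. The Cre level did not fall steadily, since day 17 stood above day 10. In wild-type cells, over 56 CpGs of 7 regions, the Cre means were 2.11, 2.08, 2.10, 2.59, 2.29 and 2.03% and the mock means 3.55, 2.74, 2.91, 2.98, 2.80 and 2.62%. The wild-type Cre samples lay below all mock samples at days 4, 10 and 17, by 1.44, 0.81 and 0.51 points, and overlapped them at days 8, 13 and 29. The day 4 difference of -1.44 was -0.91 points without replicate 1 of the mock samples, which stood apart. Whether these differences differed between the lines was tested only at day 29.

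**Figure D3:**
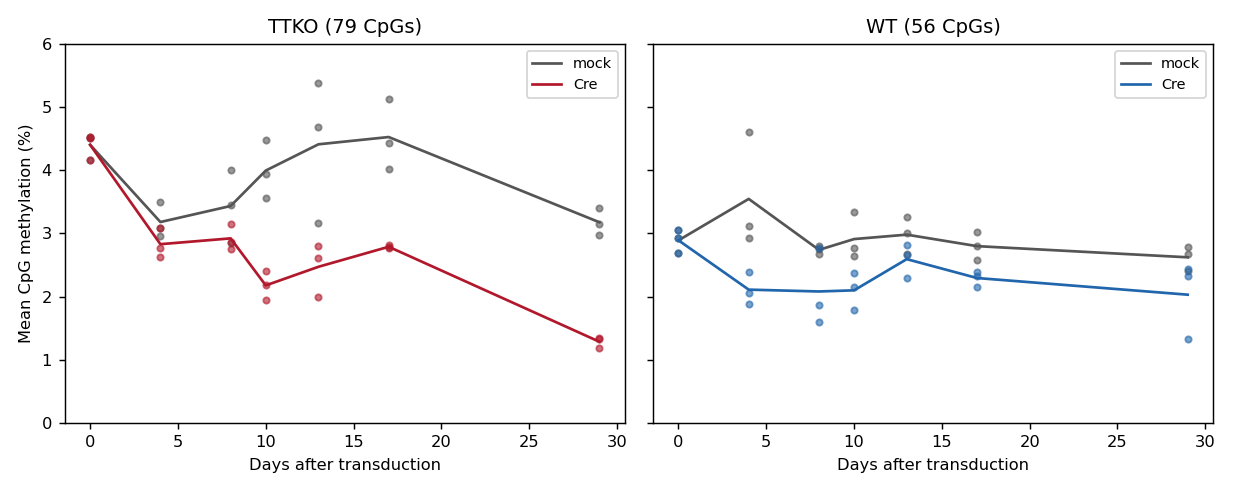
Mean amplicon methylation (percent) by day after treatment for mock and Cre cells, with replicates as points and group means as lines, over 79 CpGs in TTKO cells and 56 CpGs in wild-type cells. The Cre points lie below the mock points from day 10 on in TTKO cells and at days 4, 10 and 17 in wild-type cells, whose group means stay between 2.03 and 3.55%.

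The 3 strongly changed CpGs showed the course more clearly. At chr4:135690695 in Id3 the Cre means were 24.4, 19.7, 21.1, 17.4, 15.6 and 4.24% from day 4 to day 29, while the mock means stayed between 24.3 and 34.7%. At chr16:18037016 in Dgcr6 the Cre means were 16.3, 10.1, 14.4, 8.01, 13.7 and 2.35%, with 2 replicates at day 10, and the mock means were between 23.6 and 30.5%. Replicate 1 of the day 17 mock samples stood apart at this CpG, at 10.2% against 33.4 and 27.1%. At chr14:20901995 in 1810063B07Rik the Cre means were 9.38, 5.58, 3.96, 4.44, 6.88 and 2.23%, and the mock means between 10.3 and 15.4%.

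**Figure D4:**
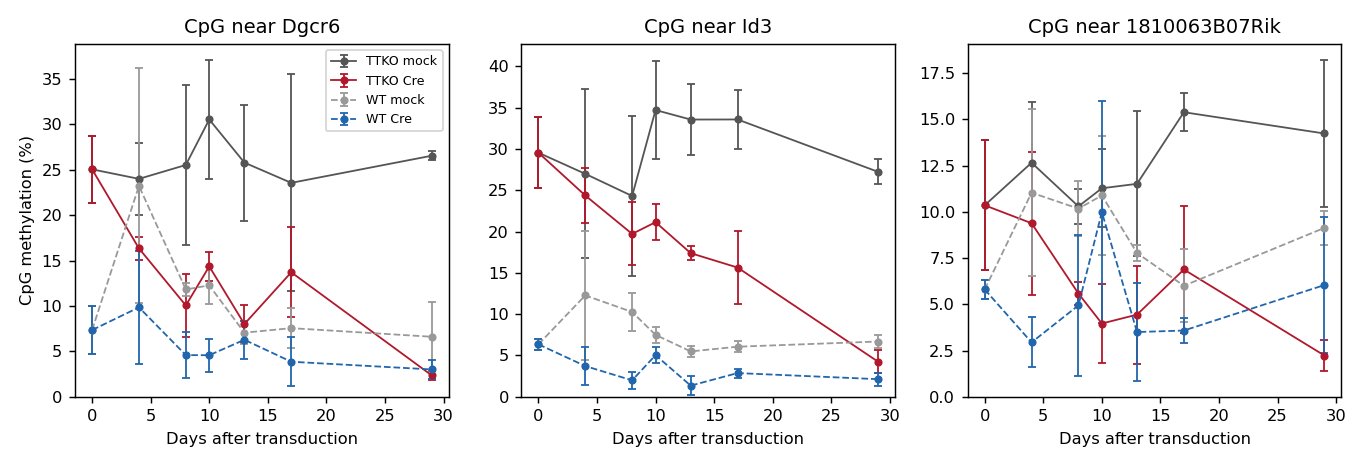
Methylation (percent) by day at the 3 CpGs with the largest fall after Cre in TTKO cells (Dgcr6, Id3 and 1810063B07Rik), for Cre and mock cells of both lines, as means with SD over replicates. TTKO mock levels stay high to day 29 (26.6, 27.2 and 14.2%) while TTKO Cre levels end at 2.35, 4.24 and 2.23%.

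In wild-type cells, which have TET, at day 29 the mean over the 82 CpGs was 2.09% ± 0.54 (SD, n = 3) after Cre and 2.61% ± 0.15 (SD, n = 3) after mock treatment. The Cre samples ran from 1.46 to 2.41% and the mock samples from 2.44 to 2.75%, so the groups did not overlap, by a narrow margin. The difference of -0.53 points was -0.21 without replicate 2 of wild-type Cre. Over the 7 promoter-proximal regions they overlapped, at 2.05% ± 0.57 and 2.49% ± 0.12. Every Cre replicate was below every mock replicate in 3 of 9 regions, against 77.4% of the 62 regions of all types. Those were 1810063B07Rik (2.62% after Cre and 4.10% after mock), Id3 (2.10 and 3.12%) and Agfg1, where the difference was 0.13 points.

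Per CpG, 4 of the 82 were lower and 0 higher after Cre in wild-type cells, against 51.8% lower over all CpGs tested (quasi-binomial model with limma). In either direction 6 passed at an unadjusted p under 0.05 in that model. Of the 4 called, 2 lay in Id3, 1 in B3galt4 and 1 in Hdac2. At chr4:135690695 in Id3 mock read 6.09, 7.61 and 6.36% and Cre 2.68, 2.49 and 1.21% (log2 odds ratio -1.86, SE 0.30, adjusted p = 0.00263 in the same model). At chr17:34088172, in a coding exon of B3galt4, mock read 3.77, 3.41 and 3.14% and Cre 1.32, 1.66 and 1.12% (log2 odds ratio -1.39, SE 0.23, adjusted p = 0.00284 in the same model). At chr4:135690782 in Id3 mock read 2.13, 2.57 and 4.53% and Cre 1.77, 0.41 and 1.00% (log2 odds ratio -1.55, SE 0.50, adjusted p = 0.0395 in the same model), a call that was lost in several alternatives.

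The difference between the lines in their response to Cre was tested as an interaction in the same quasi-binomial model. It was called at 2 of the 82 CpGs, both with a larger fall in TTKO cells, and 14 passed at an unadjusted p under 0.05. Over all CpGs tested 2.86% were called in that direction and 3.12% in the other. Both lay in Id3. At chr4:135690809 the TTKO means were 7.001% in mock and 1.03% in Cre cells, and the wild-type means 2.08 and 2.60% (log2 odds ratio of the difference -3.28, SE 0.57, adjusted p = 0.0131 in the quasi-binomial model). At chr4:135690763 the TTKO means were 7.91 and 1.15% and the wild-type means 2.49 and 2.17% (-2.71, SE 0.66, adjusted p = 0.0424 in the same model). The Dgcr6 CpG at chr16:18037016 did not pass (-2.74, SE 0.73, adjusted p = 0.0504). The count rests on single libraries, and it was 0 with the replicate number as a block in the model. It was 0 without replicate 1 of TTKO Cre, 8 without replicate 2 of wild-type Cre, and 1 without any of replicates 2 and 3 of TTKO Cre, 1 and 2 of TTKO mock, 1 of wild-type Cre, and 2 and 3 of wild-type mock.

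The capture assay, with libraries of its own, also gave low levels inside the regions. These are pooled columns with 151 to 283.5 reads at the median member CpG, so Fisher's exact test there compares pooled libraries and not conditions. Inside the regions the mean over 143 CpGs was 2.74% in TTKO cells at day 0 and 1.53% in wild-type cells, and in TTKO cells after Cre it was 2.27, 1.78, 1.66, 1.59, 1.39 and 1.28% at days 4, 8, 10, 13, 17 and 29. No mock cells were captured, so a change with time that mock cells share cannot be told apart from the effect of Cre. By day 29, 22 of 143 CpGs were lower and 0 higher than at day 0 at an adjusted p under 0.05 (24 at an unadjusted p under 0.05), against 59.3% lower and 0.171% higher over the whole table. At day 0, 13 of 143 CpGs were higher and 1 lower in TTKO than in wild-type cells, against 44.7% higher and 0.907% lower over the table.

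B3galt4 had the highest capture mean inside a region, 4.79% in TTKO cells at day 0, 1.22% by day 29 and 1.84% in wild-type cells. Dgcr6, with 6 captured CpGs, stood at 3.43, 0.82 and 1.58%, below B3galt4 in each. Hdac2, the most CpG-rich region, stood at 1.37, 1.32 and 1.2%, and 0 of its 32 captured CpGs were called lower. The highest CpG inside lay near the left end of Tmem106b, at chr6:13019518, outside the amplicon. It read 22.6% of 385 reads in TTKO cells at day 0 (95% Wilson interval 18.7 to 27.0%), 5.0% by day 29 (3.13 to 8.04%) and 5.6% in wild-type cells (3.67 to 8.52%). The intervals cover counting error only. At the Dgcr6 CpG chr16:18037016 the capture read 12.8% in TTKO cells, 1.0% at day 29 and 1.4% in wild-type cells, so TTKO cells at day 0 stood above both as in the amplicons. Each level was lower than its amplicon level. The Id3 region had no captured CpG inside it. Over 71 CpGs of 8 regions measured by both assays, the amplicon and capture means were 3.94 and 2.50% in TTKO cells at day 0, 2.91 and 1.45% in wild-type cells, and 1.27 and 1.18% in TTKO cells at day 29. The rank correlations across these CpGs, which share libraries and regions, were 0.54, 0.44 and 0.18.

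Outside the regions most CpGs near the ends were as low as those inside, and a minority was methylated. In TTKO cells at day 0 the median was 1.6% inside and 1.45% within 500 bases of a region end, and 6.4, 27.8 and 50.3% in the 3 following bins of 500 bases. Several near flanks had lower means than their own regions, such as 1.89 against 4.79% upstream of B3galt4 and 1.04 against 2.63% upstream of Agfg1. The TTKO mean at day 0 was 7.27% over 254 CpGs within 500 bases of a region end, 28.0% over 87 CpGs at over 500 to 1000 bases, 30.2% over 29 CpGs at over 1000 to 1500 bases and 59.8% over 7 CpGs farther out. At day 29 after Cre the same bins read 3.61, 13.9, 10.497 and 34.9%, and in wild-type cells 4.79, 13.4, 15.8 and 46.3%. The bins held 9, 7, 5 and 2 regions in turn, so distance and region are mixed, and the farthest bin holds fewer than 20 CpGs. From the second to the third bin the level fell at day 29, and with at least 150 reads in every column it also fell at day 0, from 40.8 to 27.4% in TTKO and from 17.9 to 11.05% in wild-type cells.

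Over all 377 shore CpGs the TTKO mean fell from 14.8% at day 0 through 14.1, 12.4, 11.3, 10.7 and 9.02% to 7.09% at day 29, and the wild-type mean was 8.41%. The medians were 2.0, 1.6 and 1.8% at TTKO day 0, TTKO day 29 and in wild-type cells, and 253 of the 377 CpGs were under 5% in TTKO cells at day 0 while 92 reached 20%. In TTKO cells 48 shore CpGs reached 50% at day 0 and 15 at day 29, and in wild-type cells 20 did. By Fisher's exact test 123 of 377 were lower and 3 higher at day 29 than at day 0 (32.6% lower, against 59.3% over the table), with a median difference of -0.97 points against -12.2 points over the table. With at least 150 reads in every column, 98 of 192 were lower (51.0%, against 70.8% over the table), with a median difference of -3.74 against -17.9 points. Between the lines at day 0, 91 of 377 were higher and 3 lower in TTKO cells (24.1% higher, against 44.7% over the table), with a median difference of 0.48 against 4.80 points. With at least 150 reads it was 81 of 192 (42.2%, against 56.2%), with a median difference of 1.6 against 7.60 points. The 3 shore CpGs that were higher at day 29 stood at low levels, such as 0.3% at day 0 and 4.6% at day 29 at chr16:18036727 beside Dgcr6.

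The flanks differed from region to region in ways that the inside levels did not show. Around Zfp82 the flank upstream of the start stayed as low as the region, with 1.25% in TTKO cells, 1.21% at day 29 and 1.35% in wild-type cells over 36 CpGs in the first 500 bases. Around Hdac2 the upstream flank was methylated in both lines, at 48.7% in TTKO and 45.9% in wild-type cells over 7 CpGs in the first 500 bases, and 77.4 and 74.8% over 3 CpGs in the next 500. The downstream flank of 1810063B07Rik was likewise high in both, at 65.2 and 57.5% over 3 CpGs at 500 to 1000 bases.

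Some other flanks were more methylated in TTKO than in wild-type cells. Downstream of Tmem106b, 4 CpGs at 500 to 1000 bases averaged 54.9% in TTKO cells at day 0, 26.5% by day 29 and 13.6% in wild-type cells. Downstream of Agfg1, 5 CpGs in the first 500 bases averaged 32.6, 11.4 and 7.58%. Upstream of B3galt4, over the body of the ribosomal protein gene Rps18, 14 CpGs at 500 to 1000 bases averaged 32.9, 13.8 and 7.74%. Downstream of the Id3 region, 12 CpGs at that distance averaged 62.9, 27.7 and 19.1%. In all, 33 shore CpGs were at 20% or more in TTKO cells and under 10% in wild-type cells, and 0 were the other way round. That is 8.75% of the shore CpGs, near the 6.98% of the table, where 0.0431% were the other way round. Of the 33, 12 flanked B3galt4, 9 Id3, 6 Agfg1, 2 each Hdac2 and Tmem106b and 1 each 0610031J06Rik and Zfp82. Another 19 shore CpGs were at 50% or more in both lines.

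**Figure D5:**
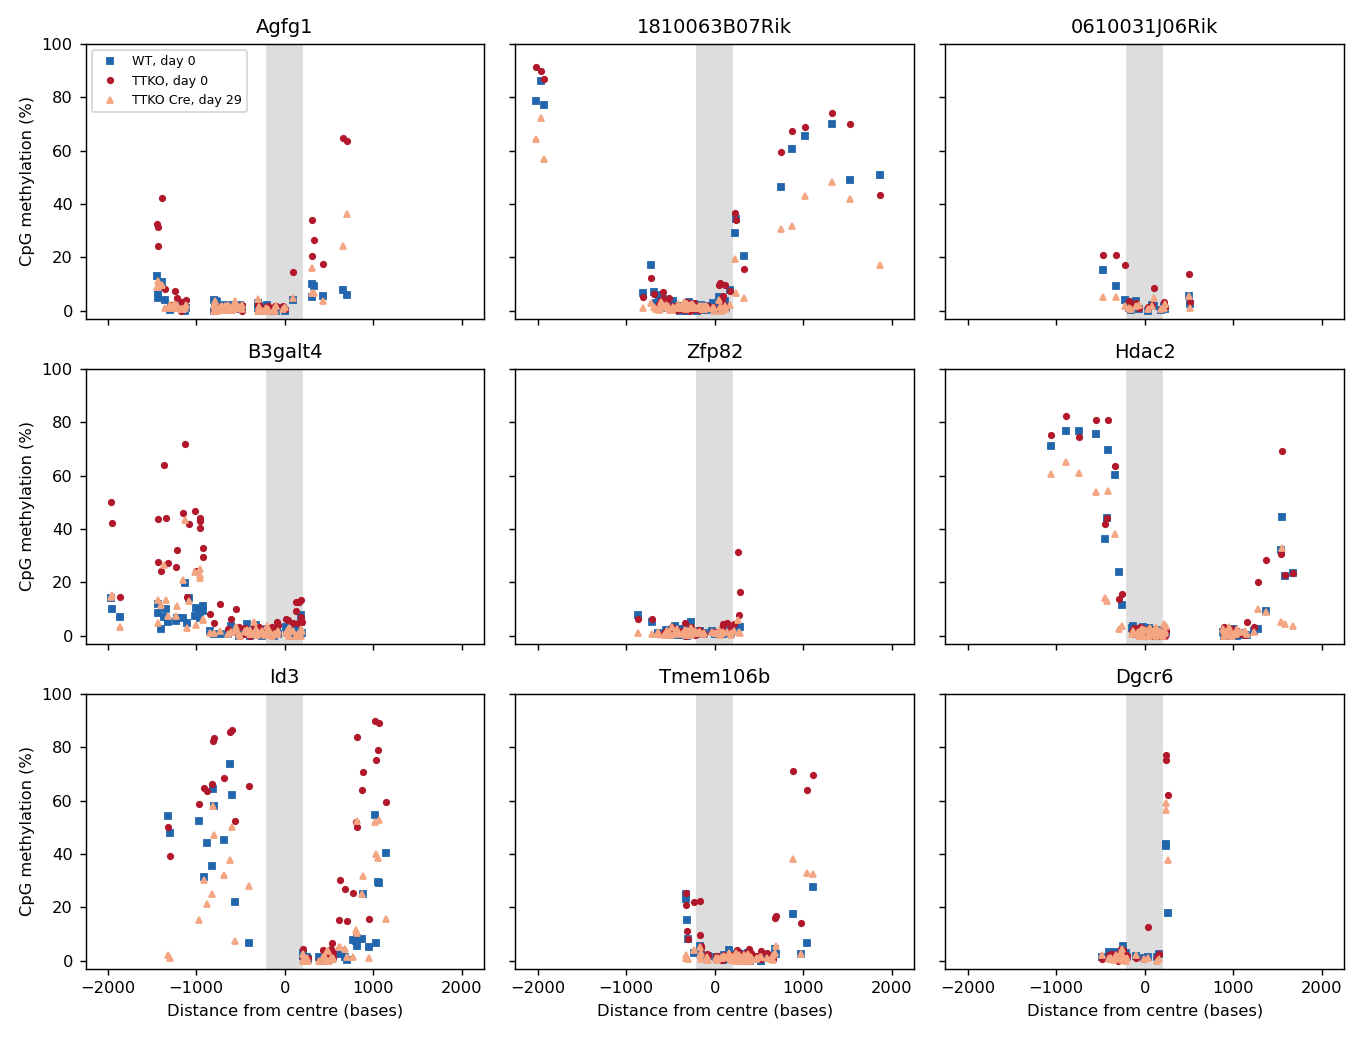
Capture methylation (percent) of single CpGs inside each region and within 2000 bases of its ends, against distance from the region centre (bases, oriented by the strand of the nearest gene), in wild-type cells at day 0, TTKO cells at day 0 and TTKO cells at day 29 after Cre. Grey marks the region. TTKO levels at day 0 exceed wild-type levels on the flanks of Id3, B3galt4, Agfg1 and Tmem106b, while the upstream Hdac2 flank stands close in both lines.

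The Id3 region had the highest shore mean in TTKO cells and the largest median difference at day 29, -24.1 points. Its 48 shore CpGs averaged 36.5% in TTKO cells at day 0, 15.1% by day 29 and 17.9% in wild-type cells. Of the 48, 30 (62.5%) were lower at day 29 and 27 (56.2%) were higher in TTKO than in wild-type cells, against 59.3 and 44.7% over the table. The largest falls among called CpGs lay on its left side. At chr4:135690226, 421 bases out, the level went from 85.7% (95% Wilson interval 81.0 to 89.3%) to 37.8% (31.8 to 44.1%), with an adjusted p of 8.80e-29 by Fisher's exact test. At chr4:135689535 it went from 50% to 2.3%, with 54.3% in wild-type cells, and at chr4:135690284 from 52.3 to 7.4%, with 22.0% in wild-type cells. The largest differences between the lines lay on its right side. At chr4:135691662, 614 bases out, TTKO cells read 84.0% (79.2 to 87.8%) and wild-type cells 8.5% (6.004 to 11.98%), with an adjusted p of 1.11e-86 by Fisher's exact test, and after Cre the level was 52.4% at day 29. At chr4:135691874 the values were 75.1 and 6.5%, and at chr4:135691917 89.0 and 29.3%. Without the Id3 shore, 93 of 329 CpGs (28.3%) were lower at day 29 and 64 (19.5%) were higher in TTKO than in wild-type cells, against the same shares over the table.

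The reach of low methylation on either side was measured as the distance from the region end to the first CpG at 50% or more. On the left of Id3 it was 207 bases in TTKO cells at day 0 and 398 bases both at day 29 after Cre and in wild-type cells. Right of Id3 it was 609, 614 and 814 bases. On the right of Agfg1, Tmem106b and B3galt4 the first such CpG stood at 457, 684 and 930 bases in TTKO cells at day 0, and no CpG reached 50% at day 29 or in wild-type cells. On the left of Hdac2 it was 134 bases in TTKO and in wild-type cells, and 217 bases at day 29. Right of 1810063B07Rik it was 1728 bases in all 3. Right of Dgcr6 it was 41 bases in TTKO cells at day 0 and at day 29, and no CpG reached 50% in wild-type cells.

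Rates of de novo methylation (k_me) and passive demethylation (k_de) were fitted to the TTKO time courses after Cre on a grid of rates. In the fit 8% of the day 0 level was mixed in for alleles that Cre did not delete. The fit needs a level high enough to follow. Low-noise fits, those whose credible ranges for both rates were narrow, were had for 98 of 377 shore CpGs (26%) and 1 of 143 CpGs inside, against 44.7% of 108881 CpGs taken as every 20th of the table. Over the 98 shore CpGs the median k_de was 0.0486 per day (quartiles 0.0274 and 0.0712) and the median k_me 0.0442 per day. Over the sampled table they were 0.0365 and 0.0712 per day. The shore values are thus those of the minority of CpGs with enough methylation to follow. By region the median k_de ran from 0.0155 per day over 3 CpGs at Dgcr6 and 0.0251 over 10 at 1810063B07Rik to 0.0561 over 22 at B3galt4, 0.0647 over 8 at Tmem106b and 0.105 over 2 at 0610031J06Rik. Id3, with 28 fitted CpGs, had a median k_de of 0.0402 per day and a median k_me of 0.0947 per day.

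In the amplicons 2 of 82 CpGs gave low-noise fits in 3 replicates. These were chr16:18037016 in Dgcr6, with a median k_de of 0.0861 per day (replicates 0.0712 to 0.104) and k_me of 0.0249 per day, and chr4:135690695 in Id3, with k_de of 0.0712 per day (0.0486 to 0.0861) and k_me of 0.0332 per day. The replicate ranges of k_de overlapped. Replicate 1 of the Dgcr6 fit lacks day 10. The rates assume a single k_me and k_de at each CpG and rest on 7 times, and the courses at both CpGs were not monotonic.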

How the data were processed

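Per the labels, mouse embryonic stem cells of 2 lines were measured by bisulfite amplicons (78 samples) and by SureSelect capture (24 samples, deposited as 8 pooled columns). The authors aligned reads to mm9 with QuasR and called methylation with AmpliconBiSeq and qMeth. Their versions are not given in the sources used here. Coverage is deposited as read counts without normalization, amplicon levels as a fraction of these counts, with none under 100 reads, and capture levels as a percent to 1 decimal, for CpGs with at least 50 reads. The deposited columns of rates and confidence classes are the authors' own inference and were not used. Coverage times level was whole (within 0.01) for 100% of amplicon values. For capture, methylated reads are that product rounded, by at most 0.5 reads.

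Sites were placed on mm9 (NCBIM37), and every member position was a CpG there. Regions were named by the nearest protein-coding start. Region types, coordinates and groups were taken from the study's list and the labels. Amplicon CpGs were tested in R 4.3.3 with a two-sided quasi-binomial model (0.5 added to each count, dispersion moderated with limma 3.58.1 and not under 1, Benjamini-Hochberg over all CpGs, threshold 0.05). Capture CpGs were tested with two-sided Fisher's exact tests adjusted over the table, since its replicates are joined, and these take no account of variation between replicates. Rates were fitted on a grid of 80 by 80 rates up to 2 per day after the study's methods. Both tests and the fit were tested on simulated data. Alternatives varied the coverage minimum, the added count, the dispersion, the samples, the shore width and the fit's settings.

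Every region is named. Values of every sample are given for the regions with the highest and lowest TTKO level, the largest difference between the lines and the largest difference between Cre and mock. Single CpGs named are the 3 highest in TTKO cells at day 0 and the 3 with the largest difference among those called in each comparison. A few others are named where a count of 5 or fewer or a stated extreme called for it, and they were chosen after their values were seen, as were the comparison of the 7 regions near starts, the shores without Id3 and the time course without single replicates. The members, lists and tests were chosen with earlier results of these data known.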

Additional observations from a re-analysis of the deposited data

Results flagged for a closer look

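At 2 CpGs of the Id3 region the response to Cre differed between TTKO and wild-type cells by the interaction term of the quasi-binomial model at an adjusted p under 0.05, and these are the CpGs set out for a closer look. Neither call held without replicate 1 of the TTKO Cre samples or with the replicate number as a block (0 calls each), and leaving out other single replicates gave 1 to 8 calls. At chr4:135690763 the log2 odds ratio of the difference was -2.71 (SE 0.66). The TTKO mock replicates of day 29 read 9.56, 8.34 and 5.84% and the Cre replicates 1.39, 1.13 and 0.94%, while the wild-type mock replicates read 4.06, 1.63 and 1.77% and the Cre replicates 2.14, 2.46 and 1.92%. At chr4:135690809 it was -3.28 (SE 0.57). The TTKO mock replicates read 8.19, 5.92 and 6.89% and the Cre replicates 0.89, 1.59 and 0.60%, while wild-type mock read 1.96, 2.52 and 1.77% and wild-type Cre 3.58, 1.499 and 2.73%. In TTKO cells the groups did not overlap at either CpG, and in wild-type cells they did at both.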

How the results depend on the processing

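The means over the 82 amplicon CpGs kept their direction in every alternative run. Leaving out single replicates gave differences of -2.23 to -2.01 points for TTKO Cre against mock at day 29, -0.69 to -0.21 for wild-type Cre against mock, 1.53 to 1.77 for TTKO against wild-type cells at day 0, -1.30 to -1.09 for TTKO mock cells at day 29 against day 0 and -0.47 to -0.26 for the same in wild-type cells. It gave 13 to 29 called CpGs for TTKO Cre against mock, 3 to 6 for wild-type Cre against mock, 16 to 24 between the lines at day 0 and 0 to 8 for the difference in response. That last count was 1 with the dispersion of each CpG alone. Inside the captured regions, requiring a difference of at least 10 percentage points left 5 CpGs lower at day 29 and 5 differing between the lines.

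Replicate numbers did not pair the samples, since not every pair of samples with the same number deviated together at a correlation over 0.1. The correlations were -0.13 to 0.05 in TTKO cells at day 29, 0.02 to 0.11 in wild-type cells at day 29 and -0.32 to -0.15 between the lines at day 0. With the number as a replicate block, 22, 3 and 19 CpGs were called in the first 3 comparisons and 0 in the difference in response.

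The order of the distance bins depended on which CpGs were kept. With at least 150 reads in every column the TTKO means at day 0 were 3.10% inside and 12.5, 40.8, 27.4 and 67.3% in the 4 bins outward, so the middle bins changed order and their rise became a fall. With each region weighted equally the bins outward read 9.80, 31.0, 39.4 and 56.8%. The bin of 500 to 1000 bases read 13.9% in TTKO cells at day 29 and 13.4% in wild-type cells, and this order turned with equal weights (14.9 and 15.4%). The study's methods added unmethylated and methylated phage DNA as conversion controls, whose values were not used here, and the rate fit takes an error share of 0.0025 from those methods. The pooled capture columns give no spread between replicates.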

Other observations

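Among pairs of amplicon CpGs that touch in a CGCG run, the pair in Id3 stood apart in TTKO cells, a feature chosen after the values were seen. At chr4:135690780 the day 0 mean was 3.68% and at chr4:135690782 it was 11.4%, a difference of 7.76 points ± 0.95 (SD, n = 3), and the second CpG was the higher in 33 of 39 TTKO samples. In wild-type cells the difference at day 0 was -0.77 points ± 3.40 and the second was the higher in 24 of 38 samples. The other 6 pairs, in 1810063B07Rik, B3galt4, Hdac2 and Tmem106b, differed by -0.11 to 1.51 points in TTKO cells at day 0. The reads that cover these pairs were not used here, so levels along single molecules were not compared.

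At the first CpG of the Id3 amplicon, chr4:135690695, the wild-type mock samples of day 4 read 15.1, 18.2 and 3.46%, and at chr16:18037016 in Dgcr6 they read 33.8, 8.80 and 27.1%. The untransduced wild-type samples read 5.67 to 7.02% and 4.73 to 9.97% at these CpGs.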
